A study of Mus musculus with 2 samples.

Results

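The nuclear-encoded genes of the mitochondrial respiratory chain were taken by name: every row of the deposited expression table that starts with Ndufa, Ndufb, Ndufc, Ndufs, Ndufv, Sdh, Uqcr, Cox4, Cox5, Cox6, Cox7, Cox8 or Atp5, without rows whose names contain "-ps". The rule gave 95 of the 25943 genes of the table and left out 8 pseudogene-like rows. By role, 7 members are core subunits of complex I, 29 are accessory subunits and 8 are assembly factors. A further 4 are subunits of complex II and 4 its assembly factors, 8 are subunits of complex III, and 11 are general subunits of complex IV. Another 8 are tissue-restricted isoforms or related proteins. ATP synthase has 5 members in its F1 head, 3 that encode the c-ring, 7 in its stalk and membrane parts, and Atp5s. At least 1 transcript was counted for 93 members, while Cox7b2 and Cox8b had none. The names take in assembly factors and the supercomplex protein gene Cox7a2l beside the subunits, and subunits encoded by mitochondrial DNA were not analysed here.

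The respiratory chain passes electrons from NADH (through complex I) or succinate (through complex II) to ubiquinone, on to complex III and cytochrome c, and to oxygen at complex IV. Complexes I, III and IV pump protons across the inner mitochondrial membrane, and ATP synthase uses their return to make ATP. Erythroblasts depend on mitochondria while they make haem and lose them on the way to the red cell. Neutrophils carry few mitochondria when mature and make most of their ATP by glycolysis.

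The study profiled all bone marrow cells of male wild-type mice aged 8 to 10 weeks with the BD Rhapsody microwell system, which labels every captured mRNA by its cell and by its molecule (a unique molecular identifier, UMI). One library came from the control condition and the other from mice with the middle cerebral artery occluded (MCAO), an operation that models ischaemic stroke by blocking blood flow to part of the brain. The time after occlusion, the handling of the controls and the number of mice per library are not given in the sources used here. There were 5212 control cells (median 3344 UMIs per cell) and 5398 MCAO cells (median 4952).

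Each condition had 1 library, so no difference between them has a replicate check and no p-value was computed. Brackets give 95% intervals, which reflect counting error alone. A level is the summed UMIs of a gene per 10000 UMIs of a cell class, and because each captured molecule is counted once it needs no correction for length. The table names no cell types, so the cells of both libraries were clustered together without the 95 genes, and the 25 clusters were named from marker genes as 16 classes, each called "-like". The study's own classes may be drawn and named differently. Haemoglobin transcripts, taken here as a sign of free RNA, stood at 9.02 per 10000 UMIs in mature-neutrophil-like cells of the control library and at 16.5 in the MCAO library. The macrophage-like class led with C1q genes but also carried neutrophil markers. Interferon-induced genes (Ifit1, Ifit3) were among the leading genes of cluster 0, the mature-neutrophil-like cluster with most cells. Cells carried codes of 2 to 5 characters rather than barcodes, so barcodes shared by the libraries could not be counted.

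Promoter stretches are shown for members whose transcripts take different courses below: Cox6a1 and Atp5g3, whose levels were lower in mature than in pre-neutrophil-like cells, Atp5l, Sdhd and Cox7a2l, whose levels differed little between those stages, and Cox6b2, which stood highest in erythroid-like cells. All come from RefSeq windows on GRCm38.p6, end upstream of the annotated start site, and lie in no annotated exon of their strand. Capitals mark matches to 4 motifs searched on both strands, namely GCATGCGC of nuclear respiratory factor 1, CCGGAAG of GABP and other ETS factors, TCAAGGTCA of the estrogen-related receptors and AAGATGGC of YY1. The first motif is nearly its own reverse complement, so matches on the 2 strands can overlap, as they do in Cox6a1. Cox6a1 lies at chr5:115349070-115349159, Atp5g3 at chr2:73911330-73911419, Atp5l at chr9:44920903-44920992, Sdhd at chr9:50603850-50603939, Cox7a2l at chr17:83514334-83514453 and Cox6b2 at chr7:4753095-4753214, all on the minus strand. The Cox7a2l window belongs to a RefSeq start site that lies inside the gene as GENCODE M21 gives it (chr17:83501918-83517330).
Cox6a1: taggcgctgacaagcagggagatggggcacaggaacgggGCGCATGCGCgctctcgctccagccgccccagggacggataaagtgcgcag
Atp5g3: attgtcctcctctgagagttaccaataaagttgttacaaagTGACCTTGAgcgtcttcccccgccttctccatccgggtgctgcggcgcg
Atp5l: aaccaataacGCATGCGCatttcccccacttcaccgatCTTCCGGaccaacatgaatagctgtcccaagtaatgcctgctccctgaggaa
Sdhd: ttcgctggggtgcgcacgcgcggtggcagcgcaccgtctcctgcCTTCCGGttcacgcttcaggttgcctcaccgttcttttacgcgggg
Cox7a2l: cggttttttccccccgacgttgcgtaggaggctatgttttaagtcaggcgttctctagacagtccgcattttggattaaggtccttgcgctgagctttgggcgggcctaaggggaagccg
Cox6b2: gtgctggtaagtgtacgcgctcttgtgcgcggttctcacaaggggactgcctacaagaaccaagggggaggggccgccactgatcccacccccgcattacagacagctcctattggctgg

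RefSeq windows of 300 bases (250 before and 50 after a start site) were held for 80 of the 95 members. GCATGCGC was found in 15% of them against 3.94% of the 17492 protein-coding genes with a window. CCGGAAG was found in 26.3% against 12.9%, AAGATGGC in 13.8% against 3.57%, and TCAAGGTCA in 2.50% (Atp5g3 and Sdhd) against 0.377%. The TCAAGGTCA match of Sdhd does not lie within the 250 bases before the start site, so its printed stretch does not hold it. At least 1 of the motifs was present in 47.5% of the members and 19.0% of coding genes. A match is a run of letters and was not tested for binding. The stretches of Cox7a2l and Cox6b2 held none of the 4 motifs in these bases.

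The members together took the largest share of transcripts in erythroid-like cells and the smallest in mature-neutrophil-like cells. Erythroid-like cells gave sums of 224 UMIs per 10000 [222, 226] in control and 217 [216, 219] in MCAO. Mature-neutrophil-like cells gave sums of 54.2 [53.5, 54.8] and 58.3 [57.7, 58.9]. The other 14 classes lay between these in both libraries, and the mature-neutrophil-like and immature-neutrophil-like classes were the lowest in each.

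In the control library haematopoietic-progenitor-like cells came second, with 188 [186, 190] in control and 195 [194, 197] in MCAO. NK-cell-like cells followed with 178 [173, 183] and 176 [170, 182], which overlap, and promyelocyte-like cells with 168 [166, 171] and 171 [169, 172]. T-cell-like cells had 153 [149, 157] and 140 [136, 144]. The order differed in the MCAO library, where early-B-like cells (173 [170, 175]) stood level with promyelocyte-like cells, and monocyte-like cells (151 [150, 152]) stood above T-cell-like cells. Below them in the control library, early-B-like cells (those with pro-B or pre-B markers, 142), eosinophil-like (138), monocyte-like (137) and plasmacytoid-dendritic-like cells (136) lay within each other's counting error except for the first against the last 2. Pre-neutrophil-like cells had 105 in each library. B-cell-like cells had 98.5 and 102, and macrophage-like cells 95.01 and 96.2, which do not differ beyond counting error in the control library.

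**Figure D1:**
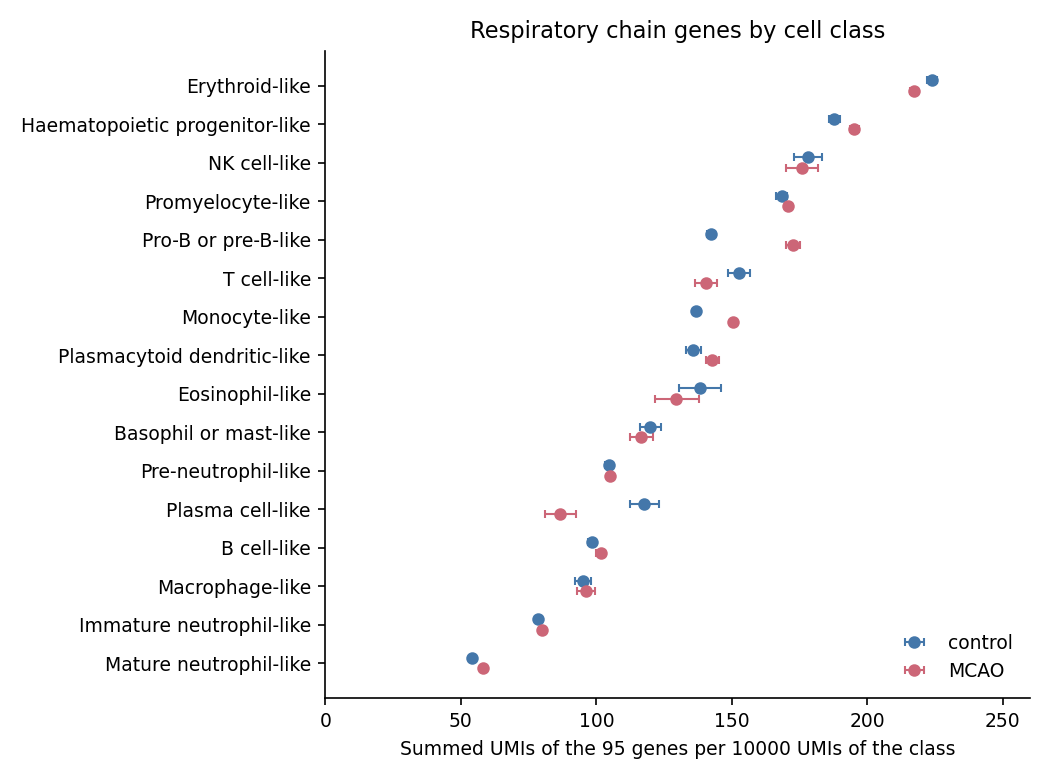
Summed level of the 95 genes in each of 16 cell classes (UMIs per 10000 UMIs of the class, horizontal axis), with control in blue, MCAO in red and bars for 95% Poisson intervals. Erythroid-like cells stand at 224 and 217 and mature-neutrophil-like cells at 54.2 and 58.3, with the libraries close together in most classes.

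The most abundant members came from complex IV and ATP synthase. With the classes weighted alike, Cox4i1, a general subunit gene of complex IV, had a mean of 6.13 UMIs per 10000, Cox6a1 5.08 and Cox8a 4.57. Atp5a1, the alpha subunit of the F1 head, had 5.62, Atp5g3 5.57, and Atp5h, a peripheral stalk subunit, 3.04. In complex III the hinge protein gene Uqcrh had 3.96 and the Rieske iron-sulfur protein gene Uqcrfs1 1.30. In complex I the accessory subunit genes Ndufa2 (3.14) and Ndufa1 (2.87) stood above the most abundant core subunit, Ndufv2 (1.59). The most abundant assembly factors, Ndufaf8 (0.43) and Sdhaf2 (0.39), were lower than these subunits. Of the 50-base words at the end of the Atp5h transcript, 60.3% also occur in other genes, so its level is uncertain.

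Within the erythroid-like class the sum followed the clusters. Cluster 17, led by Atp1b2 and Car1 and with a median of 24671 UMIs per cell, had 251 in control and 256 in MCAO. Only 1 erythroid marker was among its 10 leading genes, so cluster 17 was named by marker score. Cluster 10, led by Hemgn and Slc4a1, had 207 and 204. Cluster 22, in which haemoglobin transcripts took 37.9% and 37.4% of UMIs, had 49.6 and 51.5. With haemoglobin genes left out of the totals, cluster 22 still had 79.9 and 82.3, below the other erythroid-like clusters. The monocyte-like clusters also differed: cluster 9 (F13a1, Klf4) had 156 and 169, cluster 4 (Ccr2, Vcan) 120 and 137, and cluster 19 (Ace, Cd300e), named by marker score alone, 93.7 and 92.4.

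Along the neutrophil lineage the sum was lower at each stage in both libraries. Control values went from 168 in promyelocyte-like to 105 in pre-neutrophil-like, 78.5 in immature-neutrophil-like and 54.2 in mature-neutrophil-like cells. MCAO values were 171, 105, 79.8 and 58.3. Mature over pre-neutrophil-like, the fold was 0.518 [0.509, 0.527] in control and 0.554 [0.546, 0.563] in MCAO. Cells also held fewer UMIs at each stage (medians of 8940 in pre-neutrophil-like and 2703 in mature-neutrophil-like control cells), so the members' mean UMIs per cell went from 98.5 to 16.4 in control and from 104 to 20.97 in MCAO. With every cell thinned to 1000 UMIs, the control mean was 10.6 member UMIs in pre-neutrophil-like and 5.398 in mature-neutrophil-like cells, and the MCAO mean 10.7 and 5.74.

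Most members shared this course. Among members with at least 50 UMIs over both stages and a UMI in at least 2% of the cells of 1 stage, 73 of 77 control values were lower at the mature stage and 43 of them by at least 2-fold, beside 30.8% of all genes. In the MCAO library 75 of 79 were lower and 39 by at least 2-fold, beside 33.8% of all genes. No member was at least 2-fold higher in either library, beside 14.6% of all genes in control and 13.2% in MCAO. The median log2 ratio of the members was -1.04 in control and -0.96 in MCAO, beside -0.37 and -0.45 for all genes. Most of all genes past the minimums were thus also lower at the mature stage in each library. Of the 77 members past these minimums in both libraries, 71 were lower in both and 31 at least 2-fold lower in both. How many of all genes were so in both libraries was not counted. The remaining members of the 95 had too few UMIs for a ratio.

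**Figure D2:**
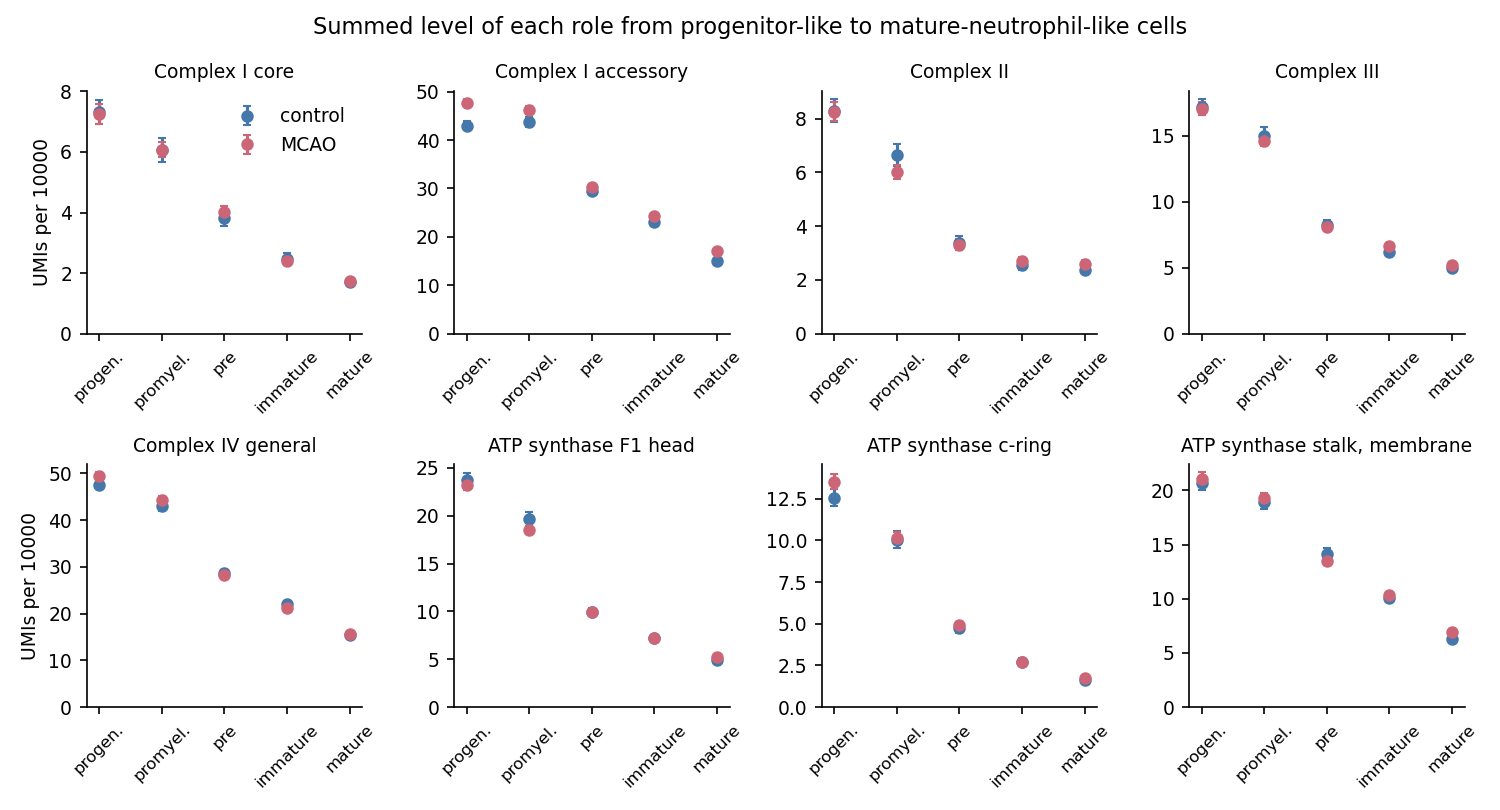
Summed level of each role (UMIs per 10000, vertical axes from 0) from haematopoietic-progenitor-like to mature-neutrophil-like cells, control in blue and MCAO in red, with 95% Poisson intervals. All 8 roles are lower in mature than in pre-neutrophil-like cells; complex II is nearly level from the immature stage (2.57 and 2.38 in control).

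By role, the c-ring had the lowest fold of mature over pre-neutrophil-like cells, 0.346 [0.315, 0.380] in control and 0.353 [0.326, 0.382] in MCAO. Complex I core subunits, which carry the flavin and iron-sulfur clusters, had 0.445 [0.403, 0.490] and 0.432 [0.397, 0.469]. Accessory subunits of complex I had 0.510 [0.493, 0.527] and 0.563 [0.548, 0.579]. These 3 roles therefore differed beyond counting error in the control library.

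The F1 head of ATP synthase, which holds the catalytic sites, had folds of 0.502 in control and 0.522 in MCAO. The stalk and membrane subunits had 0.443 [0.422, 0.466] and 0.515 [0.493, 0.537], which do not overlap between the libraries. General subunits of complex IV had 0.540 and 0.557, and complex III 0.601 and 0.646. Complex II, the succinate dehydrogenase that also belongs to the tricarboxylic acid cycle, had the fold nearest to 1 among the complexes, at 0.704 [0.641, 0.774] and 0.780 [0.722, 0.844].

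The members with the lowest mature over pre-neutrophil-like ratios came from several complexes. Atp5o, which encodes the peripheral stalk subunit OSCP, went from 2.35 to 0.535 UMIs per 10000 in control and from 2.22 to 0.638 in MCAO, 4.40-fold and 3.48-fold lower. Its name matched no single gene of GENCODE M21, so exon overlaps and shared sequence were not checked for Atp5o. Ndufa4, whose product is a complex IV subunit despite its name, went from 2.004 to 0.607 and from 1.999 to 0.560. Ndufv2, an iron-sulfur core subunit of complex I, went from 1.54 to 0.422 and from 1.61 to 0.472. All 3 were over 3-fold lower in each library.

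Ndufc2 and Ndufa5, accessory subunits of complex I, were 4.09-fold and 3.87-fold lower in control and 3.29-fold and 4.09-fold lower in MCAO. Ndufaf3, a complex I assembly factor, had the lowest mean log2 ratio of all members, -1.60 in control and -2.27 in MCAO. It rests on 52 and 38 UMIs in mature-neutrophil-like cells, and its exons overlap Impdh2 on the opposite strand.

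A few members did not share the course. Cox7a2l, whose product helps to join complexes III and IV into supercomplexes, had 0.659 UMIs per 10000 in pre-neutrophil-like and 0.785 in mature-neutrophil-like control cells, and 0.884 and 1.12 in MCAO cells, log2 ratios of 0.25 and 0.33. Ndufa7, an accessory subunit of complex I, had 1.07 and 1.08 in control and 0.955 and 1.16 in MCAO. These are the only 2 of the 77 members that were higher in both libraries. With cells thinned to 1000 UMIs, the control log2 ratios turned to -0.10 for Cox7a2l and -0.03 for Ndufa7. Thinning was 1 random draw that weights cells alike and leaves few UMIs of genes at such levels. No interval was computed for thinned ratios.

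Atp5l (subunit g of ATP synthase), Ndufaf7 (a methyltransferase needed for complex I assembly) and Sdhaf2 (which helps to attach flavin to Sdha) were higher in 1 library and lower in the other. Atp5l had log2 ratios of 0.41 and -0.03, Ndufaf7 -0.02 and 0.17, and Sdhaf2 0.18 and -0.11. Atp5l stood at only 0.0800 to 0.127 UMIs per 10000 in these cells, and 75.2% of the 50-base words in the last 500 bases of its transcript also occur in other genes, and the 3 that share most are processed pseudogenes, so its level and ratio are uncertain.

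**Figure D3:**
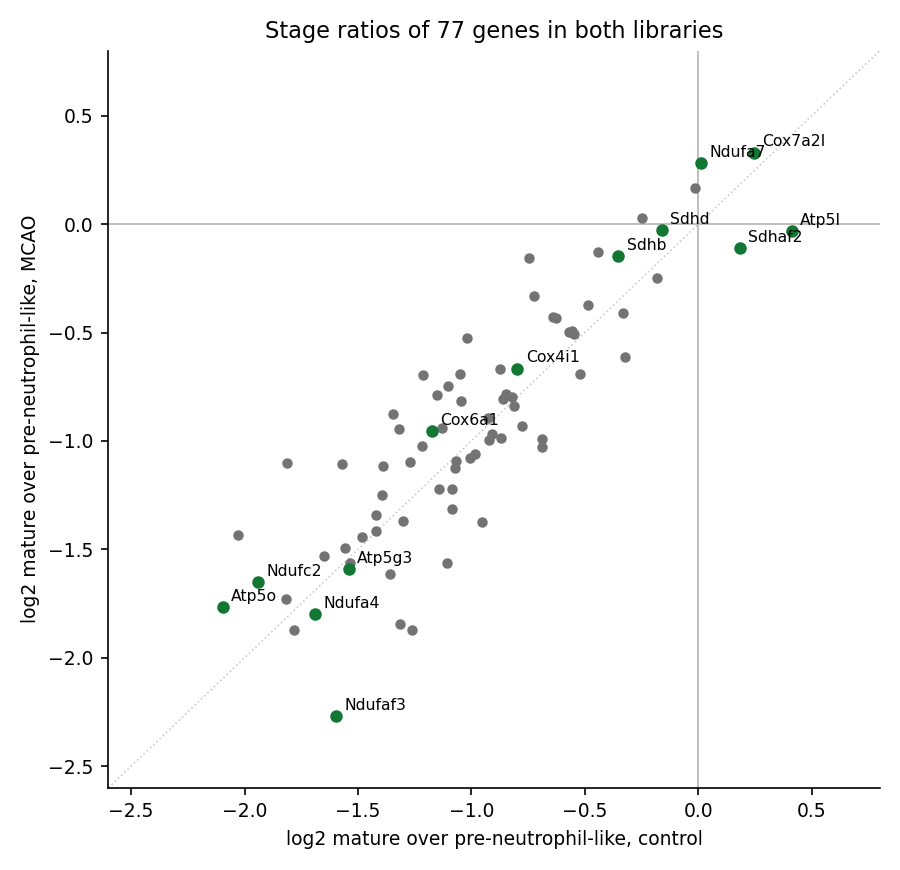
Each point is 1 of the 77 members past the count minimums in both libraries, with its log2 ratio of mature over pre-neutrophil-like level in control (horizontal) and in MCAO (vertical). Of these, 71 lie below 0 on both axes, while Cox7a2l and Ndufa7 lie above 0 on both (below 0 in control after thinning). The same counts over all genes were not made.

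The members of complex II differed among themselves. Sdhc, a membrane anchor, went from 0.527 to 0.238 UMIs per 10000 in control and from 0.507 to 0.192 in MCAO, log2 ratios of -1.08 and -1.32. Sdha, the flavoprotein that oxidises succinate, had log2 ratios of -0.87 and -0.67, the first of which turned to 0.20 with cells thinned to 1000 UMIs. Sdhb, the iron-sulfur subunit, had -0.35 and -0.15. Sdhd, the other membrane anchor, had 1.19 and 1.06 UMIs per 10000 in control and 1.14 and 1.12 in MCAO, log2 ratios of -0.16 and -0.03. The 2 anchors of the same complex thus took different courses in each library.

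The c-ring of ATP synthase is built from copies of 1 protein that 3 genes encode, with targeting sequences that differ. Atp5g3 gave most of the counted c-ring transcripts in every class. Of the 50-base words at the transcript ends, 15.7% of Atp5g1 and 23.1% of Atp5g2 also occur in other genes, but 0% of Atp5g3. The 3 genes may therefore not be counted equally well, and their shares are uncertain to that extent. Its share was 66.9% [64.9, 68.8] in haematopoietic-progenitor-like and 67.4% [66.0, 68.9] in erythroid-like cells of the control library, and 69.9% and 66.8% in the MCAO library. In pre-neutrophil-like cells it was 76.5% [73.7, 79.1] and 79.2% [77.3, 81.1], and in mature-neutrophil-like cells 75.2% [72.1, 78.1] and 73.7% [70.7, 76.5]. The share of Atp5g3 was thus higher in pre-neutrophil-like than in progenitor-like cells beyond counting error in both libraries.

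Atp5g1 gave most of the rest of the c-ring transcripts, with 32.7% in progenitor-like and 22.7% in pre-neutrophil-like control cells and 29.1% and 20.2% in MCAO cells. Its level went from 4.11 UMIs per 10000 in progenitor-like to 0.399 in mature-neutrophil-like control cells and from 3.93 to 0.446 in MCAO cells. Atp5g2 stayed at or under 1% of the c-ring transcripts in the progenitor-like, promyelocyte-like, neutrophil-lineage and monocyte-like classes of both libraries.

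Other mitochondrial gene lists were lower over the same step, and the sum of the glycolysis list was not. Of 18 genes of the tricarboxylic acid cycle and pyruvate dehydrogenase, 13 of the 14 past the minimums were lower in mature than in pre-neutrophil-like control cells and 16 of 17 in MCAO, and the sum had folds of 0.524 and 0.615. Fumarase (Fh1) had the lowest mean log2 ratio there, -2.11. Of 77 mitochondrial ribosomal protein genes, 51 of 55 and 61 of 63 were lower, with folds of 0.491 and 0.480. Electron carriers and assembly genes outside the name rule were lower for 16 of 19 and 19 of 22, with folds of 0.575 and 0.597. Carriers of adenine nucleotides and phosphate and the porins were lower for 5 of 5 in each library, with folds of 0.569 and 0.574.

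The 19 glycolysis genes summed to 41.6 and 47.2 UMIs per 10000 in pre-neutrophil-like and mature-neutrophil-like control cells and to 44.4 and 54.6 in MCAO cells, folds of 1.13 [1.11, 1.16] and 1.23 [1.205, 1.252]. The glucose transporter genes Slc2a1 and Slc2a3 had mean log2 ratios of 2.59 and 2.02 and the transporter gene Slc16a3 1.70, while triose phosphate isomerase (Tpi1) had -1.77. The enzymes were not summed apart from the transporters, so the sum does not give their course. The 20 cell division genes were all at least 2-fold lower in both libraries, and their sum had a fold of 0.0658 in control. Mki67 and Top2a of this list were also among the markers that named the pre-neutrophil-like class. Among regulators of mitochondrial gene expression, Tfam, which packages mitochondrial DNA, had -1.19, Gabpa -1.46 and Nrf1 -0.49. The part of cell division in the members' course was not tested.

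From early-B-like to B-cell-like cells the sum was also lower, with a fold of 0.692 [0.679, 0.705] in control and 0.589 [0.576, 0.602] in MCAO. Of the members past the minimums, 78 of 84 were lower in control and 76 of 79 in MCAO, beside 4670 of 8466 and 3848 of 7125 of all genes. The members' median log2 ratio was -0.49 and -0.77, beside -0.07 for all genes in each library. The clusters differed: cluster 6, with 505 of the 721 early-B-like control cells, had a sum of 101, near the 93.3 and 103 of the B-cell-like clusters, while clusters 14 and 20 had 174 and 154. With cells thinned to 1000 UMIs, the control means were 11.5 member UMIs in early-B-like and 9.63 in B-cell-like cells.

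The tissue-restricted isoforms were low in most classes, with 2 exceptions. Cox6a2, the heart and muscle isoform of subunit 6A of complex IV, had 11.1 UMIs per 10000 [10.3, 11.9] in plasmacytoid-dendritic-like cells of the control library and 8.68 [8.11, 9.28] in the MCAO library. Among the 9 classes that had 100 or more cells per library, progenitor-like cells came next (0.606 in control and 0.195 in MCAO), and mature-neutrophil-like cells had 0.0625 and 0.0479. The general isoform Cox6a1 had 4.58 and 4.55 in plasmacytoid-dendritic-like cells, so Cox6a2 transcripts outnumbered those of Cox6a1 there.

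At least 1 Cox6a2 UMI was found in 63.4% [55.1, 71.3] of the 145 control and 65.7% [58.0, 72.8] of the 169 MCAO plasmacytoid-dendritic-like cells, at median depths of 4767 and 5118 UMIs. Mature-neutrophil-like cells, with 1.83% and 1.66% at 2703 and 3333.5 UMIs, are given as a low reference, and other classes had higher shares. With cells thinned to 1000 UMIs the shares were 48.5% in each library, against 0.942% and 0.332% in mature-neutrophil-like cells. Progenitor-like cells had the highest thinned shares among the other classes, 7.52% in control and 4.17% in MCAO. The gene lies at chr7:128205435-128206387 on the minus strand (GENCODE M21), and its exons overlap those of Itgad on the opposite strand.

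In progenitor-like cells Cox6a2 was lower in MCAO, with 111 UMIs in control and 51 in MCAO, a fold of 0.322 [0.227, 0.453]. Few cells held these UMIs: 3 of 135 control cells had 43.2% of them and 3 of 168 MCAO cells 39.2%. Markers of plasmacytoid dendritic cells moved with it, since Siglech had 0.273 and 0.0994 UMIs per 10000, Ccr9 0.147 and 0.0574, Ly6d 0.922 and 0.317, and Bst2 2.65 and 1.64 in the 2 libraries. Runx2 had 1.90 and 1.33, Tcf4 1.59 and 1.44 and Irf8 8.77 and 8.81, while Klk1 had 0 and 1 UMI. Their part in the Cox6a2 value was not tested.

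Cox6b2, known as the testis isoform of subunit 6B, stood highest in erythroid-like cells, with 1.67 UMIs per 10000 [1.51, 1.84] in control and 1.71 [1.58, 1.84] in MCAO. Promyelocyte-like cells had 0.487 and 0.661, progenitor-like cells 0.393 and 0.516, and mature-neutrophil-like cells 0.0787 and 0.0700. The share of erythroid-like cells with a Cox6b2 UMI was 44.4% and 55.8%, or 8.85% and 13.1% after thinning to 1000 UMIs, against 1.07% and 0.730% of thinned mature-neutrophil-like cells. The general isoform Cox6b1 stood at 7.92 and 7.69 in erythroid-like cells, above Cox6b2.

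**Figure D4:**
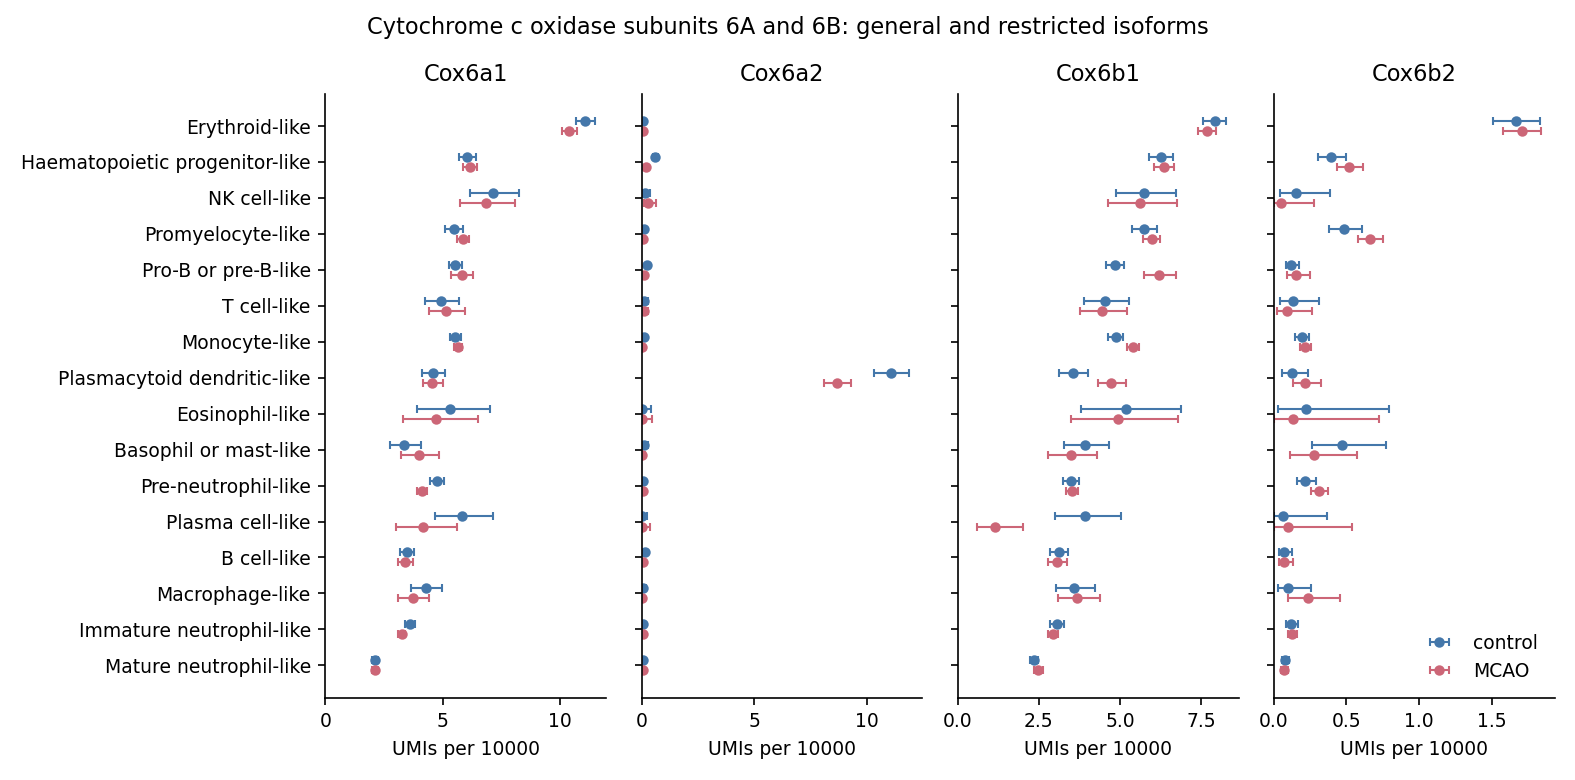
Levels of Cox6a1, Cox6a2, Cox6b1 and Cox6b2 (UMIs per 10000, separate horizontal axes from 0) in 16 classes, control in blue and MCAO in red, with 95% Poisson intervals. Cox6a2 stands at 11.1 and 8.68 in plasmacytoid-dendritic-like cells, and Cox6b2 at 1.67 and 1.71 in erythroid-like cells.

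Cox7a2l had 0.659 UMIs per 10000 in pre-neutrophil-like control cells, its lowest level, and 2.48 and 2.47 in B-cell-like cells. Cox7a1, Cox4i2 and Ndufa4l2 were hardly detected, with 49, 6 and 2 UMIs over all control cells and 46, 9 and 0 over all MCAO cells.

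Most members varied across classes together. Over 28 points, 14 classes that had 30 or more cells per library, the Pearson correlation of a member's log2 level with that of the sum of the other members had a median of 0.86 across the 87 members with at least 500 UMIs, and 29 reached 0.9. The points share libraries and totals, so this is a description. The same correlation was not computed for genes outside the rule, so whether such likeness is particular to the members was not tested. Atp5o followed the sum most closely (0.98), ahead of Cox4i1 (0.97) and Atp5g3, Ndufa4 and Cox7b (0.96 each). Atp5o ranged 10.52-fold over the points and Cox4i1 3.59-fold.

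7 members stayed under 0.5. Cox6a2 had 0.23, Ndufv3 0.34, Atp5l 0.46, Sdhaf2 and Cox7a2l 0.48, and Ndufaf7 and Ndufs5 0.49. Ndufv3, an accessory subunit of complex I that exists as splice forms, was highest in promyelocyte-like cells (3.83 and 4.14 UMIs per 10000) and had 3.05 and 2.92 in pre-neutrophil-like cells, above its 1.82 and 2.004 in erythroid-like cells. Ndufs5, like Atp5l, shares much of its transcript end with a processed pseudogene (43.5% of its 50-base words).

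Between the libraries, most members differed by less than 25% upwards or 20% downwards, and their median lay above that of all genes in 8 of those 9 classes. Pre-neutrophil-like cells were the exception, with a median log2 ratio of MCAO over control of 0.01 for members and 0.01 for all genes. The summed level in MCAO was 1.21 times the control level [1.19, 1.23] in early-B-like, 1.10 times [1.09, 1.11] in monocyte-like, 1.08 times [1.06, 1.09] in mature-neutrophil-like and 0.971 times [0.961, 0.982] in erythroid-like cells. The erythroid-like clusters did not all share the last direction, with 0.984 in cluster 10, 1.02 [1.00, 1.03] in cluster 17 and 1.04 [0.916, 1.18] in cluster 22. Haemoglobin transcripts took 389 and 581 per 10000 UMIs of the erythroid-like class, and cluster 22 held 21 control and 51 MCAO cells. Without haemoglobin in the totals, the sums were 219.4 and 219.3 in cluster 10 and 252 and 256 in cluster 17.

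In mature-neutrophil-like cells 52 of the 76 members past the minimums were higher in MCAO and 24 lower, with a median log2 ratio of 0.09 against -0.02 for all genes. Of all genes past the minimums, 3357 of 7069 were higher. At least 25% higher were 12 members, beside 11.6% of all genes, and 4 were at least 20% lower (the same fold downwards), beside 15.7%. Cox7a2l went from 0.785 to 1.12 UMIs per 10000, a fold of 1.42 [1.251, 1.62]. Ndufa8, an accessory subunit of complex I, went from 0.535 to 0.789, a fold of 1.48 [1.26, 1.73], and Ndufb10, another one, from 0.236 to 0.356, a fold of 1.51 [1.19, 1.91].

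At the low end of mature-neutrophil-like cells were Ndufaf3 (0.105 and 0.0700 UMIs per 10000), Ndufc1 (0.250 and 0.192) and Cox5a (0.111 and 0.0829), whose fold intervals all include 1. By role, 21 of 27 complex I accessory subunits were higher, with a median of 0.13, and 5 of 11 general complex IV subunits. The summed level was higher in MCAO in each of the 3 clusters of the class, at 49.7 and 54.3 in cluster 0, 53.9 and 58.2 in cluster 2 and 58.5 and 62.2 in cluster 3. Cluster 2 held 98 control and 841 MCAO cells. Haemoglobin transcripts were also higher in this class in MCAO (9.02 and 16.5 per 10000 UMIs). With them left out of the totals the median was 0.09, but so small a share of the totals can hardly move it. The part of member transcripts in free RNA was not tested.

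Monocyte-like cells had 71 of 89 members higher in MCAO and 18 lower, with a median log2 ratio of 0.14 against -0.0011 for all genes. Beside them, 4938 of 9915 of all genes were higher. 8 members were higher by at least 25%, beside 13.3% of all genes, and 2 were lower by at least 20%, beside 14.6%. Most members thus differed by less than these folds, and most were higher. Accessory subunits of complex I were higher for 26 of 29, general complex IV subunits for 10 of 11, and complex I assembly factors for 3 of 8. Ndufv3 went from 1.22 to 1.74 UMIs per 10000, a fold of 1.43 [1.28, 1.59], and Ndufb6 from 0.368 to 0.502, a fold of 1.37 [1.12, 1.68]. Cox6a2 went from 0.0860 to 0.0388, on 32 and 26 UMIs. By cluster, cluster 4 was 1.14 times [1.12, 1.16] and cluster 9 1.08 times as high in MCAO, while cluster 19 (60 control and 44 MCAO cells) had 0.986 [0.920, 1.06].

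Early-B-like cells had the highest median of all classes compared, 0.27 against -0.0011 for all genes. Beside 4033 of 8099 of all genes, 71 of 83 members were higher. Past the same folds, 34 were higher, beside 19.8% of all genes, and 5 were lower, beside 21.9%. The clusters of this class were mixed differently in the libraries. Cluster 6, with 505 of the 721 control cells and 113 of the 204 MCAO cells, had sums of 101 and 106. Cluster 14 had 174 and 195, and cluster 20, with 59 and 31 cells, had 154 and 181. With the 3 clusters weighted alike, a setting chosen after seeing the data, the median was 0.17. Ndufa5 went from 0.550 to 1.04 UMIs per 10000, a fold of 1.89 [1.46, 2.45], and Ndufv1, the flavin-bearing core subunit of complex I, from 0.509 to 0.859, a fold of 1.69 [1.27, 2.23]. With cells thinned to 1000 UMIs the log2 ratio of Ndufv1 turned to -1.06. At the low end were Cox6a2 (-1.29, on 59 and 9 UMIs), Sdhaf1 (-0.82) and Cox7c (-0.42, or 0.13 after thinning).

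Progenitor-like cells had 59 of 88 members higher, beside 4238 of 8923 of all genes. Past the fold, 8 members were higher (beside 13.5% of all genes) and 2 lower (beside 16.7%). Pre-neutrophil-like cells had 41 of 78 higher (beside 3964 of 7580), with 6 past the fold upwards (beside 13.3%) and 4 downwards (beside 12.7%). Immature-neutrophil-like cells had 42 of 79 higher (beside 3452 of 7505), with 4 (beside 12.0%) and 7 (beside 16.9%). Members were about evenly divided in direction in the pre-neutrophil-like and immature-neutrophil-like classes, and differences between classes were not tested.

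Plasmacytoid-dendritic-like cells had 40 of 74 members higher, beside 2998 of 6009 of all genes. Past the fold, 16 members were higher (beside 17.8%) and 10 lower (beside 19.9%). Cox6a2 had a fold of 0.783 in MCAO there. B-cell-like cells had 45 of 77 higher (beside 3601 of 7425), with 12 past the fold upwards (beside 14.3%) and 3 downwards (beside 17.3%). Erythroid-like cells had a member median of -0.05 against -0.06 for all genes, and it ranged from -0.08 to 0.01 over the alternatives. There 27 of 86 were higher (beside 3584 of 8955), 2 of them past the fold (beside 9.93%), and 6 were lower past it (beside 18.0%). Ndufb4, another accessory subunit of complex I, had a log2 ratio of 0.93 in B-cell-like cells. Ndufb2, an accessory subunit of complex I, went from 0.544 to 0.380 UMIs per 10000 in erythroid-like cells, a fold of 0.698 [0.550, 0.888].

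**Figure D5:**
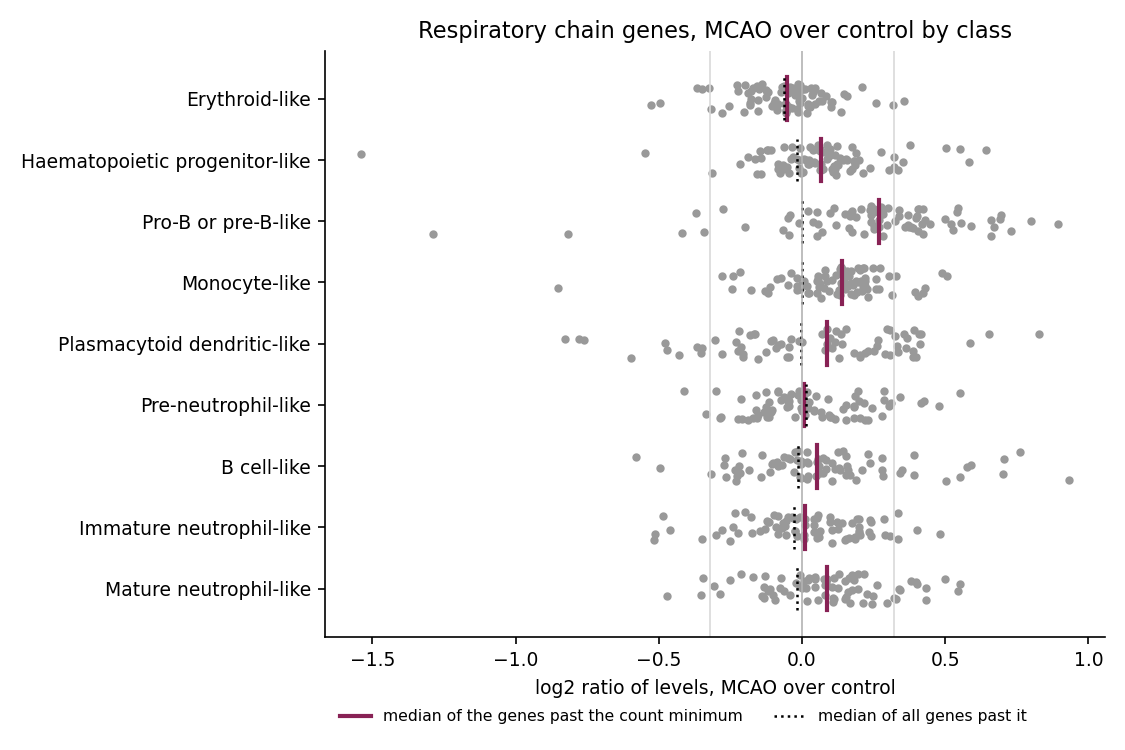
Log2 ratio of MCAO over control level (horizontal axis) for each member past the count minimums in 9 classes, with heavy bars for the members' median, dotted bars for the median of all genes past them and grey lines at 25% higher and 20% lower. The members' median is 0.27 in early-B-like, 0.14 in monocyte-like and 0.09 in mature-neutrophil-like cells.

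Beside the members, glycolysis genes were higher in MCAO for 14 of 17 in mature-neutrophil-like and 14 of 18 in monocyte-like cells, with sums of 47.2 and 54.6 and of 30.7 and 34.9 UMIs per 10000. Pfkl, the liver-type phosphofructokinase gene, had a log2 ratio of 0.87 in mature-neutrophil-like cells and Slc2a1 1.16 in monocyte-like cells. Mitochondrial ribosomal protein genes were higher for 24 of 42 and 43 of 72, with medians of 0.05 and 0.06. Tricarboxylic acid cycle genes were higher for 7 of 13 and 10 of 18, with Dlat (0.66 and 0.41) and Mdh2 (0.54 and 0.37) at the high end in both classes. Regulators of mitochondrial gene expression were higher for 5 of 7 and 6 of 14.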

How the data were processed

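The study deposited 1 table of single-cell values for both libraries. Reads were handled with fastp, STAR, UMI-tools and Seurat 4.0.6 on mm10, per the submitters' processing notes, which give no order or settings. The deposited values are the natural log of 1 plus 10000 times a gene's share of a cell's UMIs, which was tested on the table: linear values summed to 10000 in every cell, and 100% of the 19373615 values above 0 came back as a whole number of UMIs (within 0.01). The control library held 25886279 UMIs and the MCAO library 35401492.

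The libraries were clustered as 1 set of cells in scanpy 1.11.5 and leidenalg 0.10.2 in Python 3.11.15 (variable genes without the members, 30 principal components, 20 neighbours, resolution 1), without integration. Clusters were named from 20 marker sets, and the rule that scored them was set after seeing the data. The scrublet method marked 52 control and 57 MCAO cells as doublets, which were kept. Levels are summed UMIs per 10000 with exact Poisson intervals, folds have exact conditional binomial intervals (scipy 1.17.1), shares have exact binomial intervals, and log2 ratios use a pseudocount of 0.02. A gene needed 50 UMIs over both sides of a ratio and a UMI in 2% of the cells of 1 side, and a class 100 cells in each library. Named members are those at the ends of each ratio, the most abundant of each role, the isoforms, the c-ring and complex II, and those least or most like the sum. In each outside list at most 4 genes were named. The code was tested on simulated data. The members and lists were chosen with earlier results of these data known. Alternatives changed the weight of cells, depth, doublets, clustering, totals, pseudocount, count minimums and cluster mix.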

Additional observations from a re-analysis of the deposited data

Results flagged for a closer look

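Several members had log2 ratios of MCAO over control of opposite sign in different classes, with fold intervals that exclude 1 in each. Each class has 1 library per condition, so the difference was not tested. They were picked from the ratios of all members in 9 classes, and how many of all genes do the same was not counted. The early-B-like class, whose clusters were mixed differently in the libraries, gave the highest value listed for Ndufaf4, Ndufa5, Uqcr11 and Atp5g1. Ndufaf4, a complex I assembly factor, had -0.83 in plasmacytoid-dendritic-like and 0.53 in early-B-like cells. Ndufa5 had 0.31 in monocyte-like, 0.90 in early-B-like and -0.50 in B-cell-like cells. Uqcr11, a small subunit of complex III, had -0.41 in pre-neutrophil-like and 0.70 in early-B-like cells, but the first turned to 0.20 with cells thinned to 1000 UMIs. Atp5g1 had -0.35 in immature-neutrophil-like and 0.40 in early-B-like cells. Cox7c, a complex IV subunit, had 0.55 in progenitor-like, -0.78 in plasmacytoid-dendritic-like and 0.76 in B-cell-like cells, and 40.8% of the 50-base words at its transcript's end occur in other genes.

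Among the 8 pseudogene-like rows outside the name rule, Atp5l-ps2 had 0.0147 UMIs per 10000 in control and 0.0234 in MCAO (38 and 83 UMIs), a fold of 1.60 [1.08, 2.41]. The fold intervals of the other 7 include 1.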

How the results depend on the processing

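The fold of the members' sum, mature over pre-neutrophil-like, stayed below 1 under every alternative run. In control (0.518) it was 0.505 with cells thinned to 1000 UMIs, 0.527 at Leiden resolution 2, 0.495 at resolution 0.5, 0.470 with members among the variable genes and 0.486 with the 20 most abundant genes out of the totals. In MCAO (0.554) it was 0.568, 0.523, 0.510 and 0.528 under the last 4 of these. The median log2 ratio of MCAO over control in mature-neutrophil-like cells (0.09) was 0.13 after thinning, 0.055 in cells with at least 2000 UMIs and 0.15 with members among the variable genes. Of 600 alternative values for members named between libraries, 579 kept their sign and 21 did not, and of 340 between stages, 324 did and 16 did not. Of the 21, 14 belong to ratios past the fold and follow here, and the cause was not tested. Thinned ratios come from 1 random draw, leave few UMIs of low genes and have no interval. After thinning, Ndufaf6 (0.90) and Ndufa11 (-0.29) did so in progenitor-like cells, Uqcr11 (0.20) in pre-neutrophil-like, Ndufs6 (-0.29) and Uqcrb (-0.088) in plasmacytoid-dendritic-like, and Cox7c (0.13), Ndufaf7 (-0.95) and Ndufv1 (-1.06) in early-B-like cells. With each cell weighted alike, Atp5l (-0.00138) did so in pre-neutrophil-like, Ndufv1 (-0.0118) in immature-neutrophil-like and Ndufaf7 (-0.0801) in early-B-like cells. Ndufaf3 in mature-neutrophil-like cells had 0.081 with clusters weighted alike, and with members among the variable genes Ndufaf2 (0.011) and Sdhaf1 (-0.16) changed sign in erythroid-like cells. The median of all members also changed sign under some alternatives in pre-neutrophil-like (-0.01 to 0.03), immature-neutrophil-like (-0.03 to 0.08) and erythroid-like cells. No paired analysis was possible because each condition had 1 library.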
